A study of Mus musculus with 44 samples.

Results

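The livers of Mlkl knockout mice (MlklKO) were compared after 6 months on a high-fat diet deficient in choline (CD-HFD) or on normal chow as the control diet. The comparison takes all libraries labelled as Mlkl knockout on these diets: 3 on CD-HFD (replicates 1, 2 and 4) and 6 controls (replicates 1 to 6), which is 9 of the 44 liver libraries of the series. All 44 are bulk RNA libraries of mice that were 2 months old when the diets began. The other libraries come from wild-type (WT) mice, from Ripk3 knockout mice (Ripk3KO) and from Mlkl knockout mice on the low-fat counterpart of that diet (CD-LFD). Of these, the 6 WT controls, 6 WT CD-HFD, 6 Ripk3 knockout controls and 4 Ripk3 knockout CD-HFD libraries are used below, to test where the knockout response differed. The labels give the Mlkl genotype as -/- and name no allele, exon, strain, sex or batch. They do not say that each library is a separate animal, so p-values measure the spread between these samples.

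MLKL is the executioner of necroptosis, a lytic form of cell death. The kinase RIPK3 phosphorylates MLKL, which then oligomerises and permeabilises the plasma membrane. Choline is needed to make phosphatidylcholine, which coats the very-low-density lipoprotein (VLDL) particles that carry fat out of hepatocytes. A diet short of choline and rich in fat therefore leads to steatosis, inflammation and scarring of the liver, and over longer times to tumours.

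Sequencing depth was 4983234 to 6144921 counts in the 3 CD-HFD libraries and 5451832 to 9291737 counts in the 6 controls. Levels are given as CPM, read counts brought to a common library size with trimmed-mean (TMM) factors. Changes are log2 values ± SE from edgeR's quasi-likelihood test with Benjamini-Hochberg adjustment over 14862 genes. A gene is said to rise or fall where its adjusted p was under 0.05. The defining hepatocyte markers (Alb, Ttr, Apoa1, Serpina1c, Trf, Fgb and Ahsg) summed to 128000 to 146600 CPM in controls and 83870 to 110400 CPM on CD-HFD. Of these 7 genes 3 fell and none rose. The sums rest on TMM factors of 0.816 to 0.863 in controls and 1.15 to 1.27 on CD-HFD. Without these factors the sums of the diets overlapped. The exocrine pancreas genes Ctrb1, Pnliprp1 and Prss2, the muscle genes Ckm and Myh4 and the adipocyte genes Lep and Plin1 were at 0 in all 9 libraries. Other genes of these lists held a few counts. The muscle gene Mylpf had 2, 7 and 6 counts on CD-HFD and 0 to 3 in controls and passed as higher (adjusted p = 0.0400). The pancreas gene Cela2a had 2 to 3 counts on CD-HFD and 0 to 2 in controls, and the adipocyte gene Cfd had 1 to 2 and 0 to 15. Their part in the results was not tested. Control replicate 6 stood apart on the second principal component of the 9 libraries (9.14% of the variance), at 66.2 against -33.7 to 6.91 for the others.

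The targeted gene was looked at first. Mlkl was at 12.5, 4.83 and 2.80 CPM in CD-HFD replicates 1, 2 and 4, and at 1.46 to 3.04 CPM (median 2.10) in the controls. The library labelled MlklKO CD-HFD replicate 1 was the highest of the 9, close to the 14.3 to 17.7 CPM of the WT CD-HFD libraries, while the CD-HFD library at 2.80 CPM lay among the controls. WT controls held 2.28 to 6.15 CPM. The change in the knockout was 1.54 ± 0.31 (adjusted p = 7.59e-05). Without CD-HFD replicate 1 it was 0.75 and no longer passed the test. Whether the counted part of the transcript lies outside the deleted part is not given in the sources used here. Ripk3, the kinase upstream of MLKL, was at 1.74, 3.26 and 2.67 CPM on CD-HFD and 0.729 to 1.76 CPM (median 1.16) in controls, a change of 1.16 ± 0.53 (adjusted p = 0.0694) that did not pass. It did pass with library totals alone (1.69, adjusted p = 0.0114), with only the compared groups (0.013), with the replicate number as a block (0.0252), at 1 clock phase (0.0371) and without control replicate 3 (0.0491). The 1 clock phase setting leaves out 11 WT libraries and no MlklKO library, so it is no check of clock phase in this contrast.

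The diet response was broad. Of the 14862 genes tested, 6718 changed (45.2%): 3699 rose (24.9%) and 3019 fell (20.3%). The same contrast called 47.7% of genes in WT and 46.3% in Ripk3KO. At least 2-fold rises (3066 genes, 20.6%) were more numerous than falls of that size (960 genes, 6.46%). In 5855 genes (39.4%) the 3 CD-HFD livers did not overlap the 6 controls, with all CD-HFD livers above in 3292 (22.2%) and below in 2563 (17.2%). The balance of rises and falls depends on the scaling. With library totals alone in place of TMM factors, the median over all genes moved from -0.04 to 0.49, and 89.7% of the called genes were higher, against 55.1% here. Without the library labelled MlklKO CD-HFD replicate 1, 6494 genes were called, of which 6091 were also called with it, all in the same direction.

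**Figure D1:**
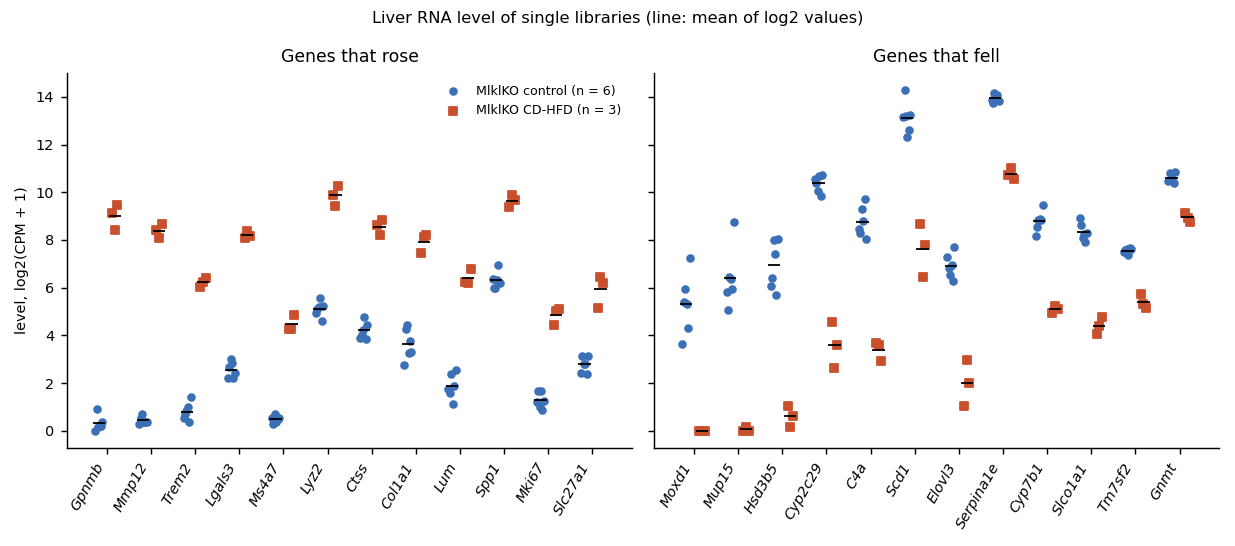
Levels of 24 genes, as log2(CPM + 1) on the vertical axis, in single MlklKO livers on control diet (circles, n = 6) and CD-HFD (squares, n = 3), with genes along the horizontal axis and lines at the mean of the log2 values. In every gene shown the 2 groups do not overlap. Mmp12 lay at 267 to 410 CPM on CD-HFD against at most 0.628 CPM in controls, and Scd1 at 85.6 to 409 CPM against at least 5036 CPM. The control means of Gpnmb and Mmp12 were under the floor of 0.652 CPM explained below, so their rises are descriptions only.

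Genes of lipid-laden macrophages were among the largest rises. Gpnmb, a transmembrane glycoprotein of phagocytes, was at 567, 345 and 698 CPM on CD-HFD and 0 to 0.869 CPM (median 0.142) in controls. Its change was 11.05 ± 0.49, and all 3 CD-HFD livers were far above every control. Mmp12, the macrophage elastase, was at 340.4, 267 and 410.3 CPM against 0.215 to 0.628 CPM (median 0.295), a change of 9.80 ± 0.38. The control means of Gpnmb and Mmp12 lay under the floor of 0.652 CPM explained below, so both rises are descriptions only. The lipid-sensing receptor Trem2 was at 64.4, 75.3 and 83.3 CPM against 0.276 to 1.64 CPM (median 0.703), a change of 6.49 ± 0.33 (adjusted p = 1.68e-19). Neither gene overlapped between the diets. Of the 16 lipid-associated macrophage genes tested, 13 rose and 1 fell, against 24.9% and 20.3% of all genes. In controls 2 of the 13 were under the floor. The median change of the list was 3.29 against -0.04 over all genes. Lgals3, which encodes the lectin galectin-3, rose by 5.86 ± 0.29 and the integrin Itgax (CD11c) by 5.67 ± 0.36.

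Genes of monocytes and of macrophages in general moved the same way. All 12 members tested rose (median 3.65). In controls 3 of them, like 1851 of all 14862 genes, had a mean under the floor of 0.652 CPM, which is 3 counts in the smallest control library. Such a gene passes the low-count filter through groups where it is higher, so its rise is a description only. The list includes the membrane protein Ms4a7 (5.63 ± 0.45), the fractalkine receptor Cx3cr1 (5.28 ± 0.46) and lysozyme Lyz2. Lyz2 was at 953, 685 and 1240 CPM on CD-HFD against 23.2 to 47.0 CPM (median 34.5), a change of 4.81 ± 0.39 (adjusted p = 3.8e-13). Of 9 resident macrophage (Kupffer cell) genes, 2 rose and 3 fell, against 24.9% and 20.3% of all genes; 1 rose in 7 of the 9 leave-one-out refits (those without control replicates 1, 2, 4 or 6 or any CD-HFD library). The list had a median of -0.28 that ranged from -0.60 to -0.03 when single libraries were left out and was 0.23 under library totals alone. Cd163, the haemoglobin-haptoglobin scavenger receptor, was at 0.696, 0.783 and 0.4 CPM against 3.88 to 27.1 CPM (median 10.1) and fell by 4.39 (SE 0.73, adjusted p = 4.42e-06). Cd5l, a secreted macrophage protein, rose by 1.53 ± 0.46, a call that was lost without the library labelled CD-HFD replicate 1 (1.24, adjusted p = 0.0525). These are whole-liver RNA values, in which more cells of a type and more RNA per cell cannot be told apart. On the TMM scale the hepatocyte marker sum given above was lower in every CD-HFD liver, and its part in these rises was not tested.

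**Figure D2:**
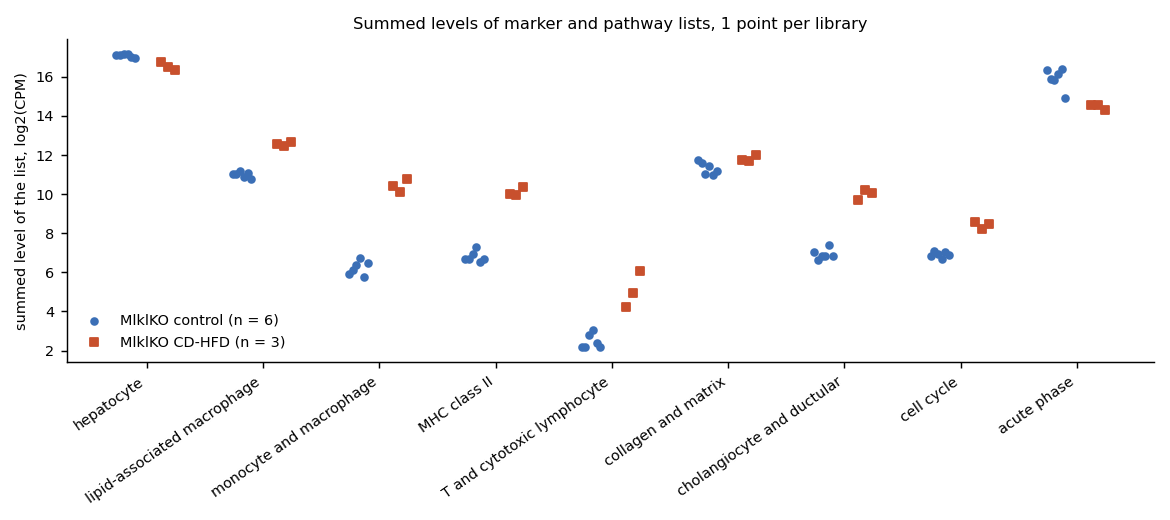
Summed levels of 9 marker and pathway lists (horizontal axis), as log2 of the summed CPM (vertical axis), with 1 point per library for MlklKO controls (circles, n = 6) and CD-HFD (squares, n = 3). Monocyte and macrophage genes summed to 1098 to 1724 CPM on CD-HFD against 55.2 to 106 CPM in controls, while hepatocyte markers summed to 83870 to 110400 CPM against 128000 to 146600 CPM. All sums are on the TMM scale, and the hepatocyte sums of the diets overlapped without it.

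Antigen presentation genes rose as well, and lymphocyte genes can be described only, since most were near 0 in controls. Of 17 T cell receptor complex and cytotoxic granule genes tested, 15 passed as higher, and all 15 had a mean under the floor in controls. The other 2, Cd4 and Lag3, did not pass. The summed level of the list was 18.98 to 67.4 CPM on CD-HFD against 4.47 to 8.17 CPM in controls, so the 3 CD-HFD livers spread widely but stayed above all controls. All 9 MHC class II genes rose (median 2.95), 1 of them under the floor in controls. Cd74, the invariant chain that guides class II molecules, was at 270.4, 268 and 372 CPM against 34.4 to 61.9 CPM (median 38.2), a change of 2.87 ± 0.28 (adjusted p = 4.95e-11). Cathepsin S (Ctss), which trims that chain, rose by 4.40 ± 0.37, and the class II chains H2-Eb1 and H2-Aa by 3.11 ± 0.29 and 3.06 ± 0.30. Of the 8 B and plasma cell genes tested (of 11 listed) 4 passed as higher, all 4 under the floor in controls. Of the 5 neutrophil genes tested (of 12 listed) 1 rose, no more than the 24.9% of all genes, the growth factor receptor Csf3r (2.04 ± 0.35). Blnk, an adaptor of B cell receptor signalling, was at 29.9, 19.96 and 30.4 CPM against 0 to 1.02 CPM (median 0.424), a change of 5.65 ± 0.33. Its control mean was under the floor, so this rise is a description only.

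Of 24 chemokines and chemokine receptors, 19 rose and 1 fell (median 2.39); 7 of the 19 were under the floor in controls. The receptor Cxcr4 rose by 4.02 ± 0.36, and Cx3cl1, the ligand of the Cx3cr1 receptor, by 3.80 ± 0.41. Interferon-stimulated genes gave 15 rises and no fall among 18 (median 1.99), with Ifi27l2a at 3.72 ± 0.40 and Oasl2 at 2.84 ± 0.32. In the list of Toll-like receptors, inflammatory cytokines and NF-kappaB targets, 10 of 17 rose and 1 fell (median 1.02), against 24.9% and 20.3% of all genes. In controls 2 of the 10 were under the floor. The adhesion molecule Vcam1 was at 54.7, 45.0 and 60.4 CPM against 10.3 to 14 CPM (median 13.5), a change of 2.07 ± 0.30 (adjusted p = 2.6e-07). Ubd, a ubiquitin-like modifier induced by interferon-gamma and TNF, was at 47.2, 56.6 and 59.8 CPM against 0.126 to 0.869 CPM (median 0.441), a change of 6.80 ± 0.49. Its control mean was under the floor, so this rise is a description only. None of the CD-HFD livers overlapped the controls for Vcam1 or Ubd.

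Matrix genes rose with the inflammatory genes. Of 25 collagen and matrix genes, 22 rose, 2 of them under the floor in controls, and 1 fell (median 2.31), against 24.9% and 20.3% of all genes. Col1a1, the main chain of fibrillar collagen I, was at 176, 275 and 291 CPM against 5.82 to 20.9 CPM (median 10.8), a change of 4.30 ± 0.37 (adjusted p = 1.02e-12). The small proteoglycan Lum was at 74.5, 72.4 and 109 CPM against 1.17 to 4.77 CPM (median 2.496) and rose by 4.88 ± 0.44 (adjusted p = 5.17e-12). Collagen I's other chain, Col1a2, rose by 4.09 ± 0.32. Of 15 stellate cell and myofibroblast genes, 10 rose and 1 fell (median 1.34), with the growth factor receptor Pdgfra at 2.82 ± 0.32, vimentin (Vim) at 2.82 ± 0.32 and the stellate cell globin Cygb at 2.07 ± 0.25. Among 15 metalloproteinases and inhibitors tested (of 20 listed) 14 rose and none fell (11 rose in the leave-one-out refit with the fewest calls); 4 of the 14 were under the floor in controls. Mmp7, matrilysin, was at 23.2, 65.6 and 50.8 CPM against 0 to 1.09 CPM (median 0.659), and the membrane protease Adam8 rose by 5.62 ± 0.38. Mmp14, which anchors at the cell surface, changed less, by 0.83 ± 0.19. The summed stellate list stood at 717 to 899 CPM on CD-HFD against 283 to 419 CPM in controls.

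Bile duct, fetal liver and proliferation genes also rose. All 14 cholangiocyte and ductular genes tested did so (median 3.30), 3 of them under the floor in controls. Osteopontin (Spp1), made by duct cells and macrophages, was at 658, 934 and 828 CPM against 62.3 to 122 CPM (median 76.5), a change of 3.33 ± 0.38 (adjusted p = 1.45e-09). The duct keratin Krt19 rose by 3.37 ± 0.44, the epithelial transcription factor Ehf by 4.81 ± 0.52 and the surface protein Cd24a by 3.98 ± 0.40. Of 17 oncofetal and tumour marker genes tested (of 21 listed), 15 rose, 4 of them under the floor in controls, and 1 fell (median 2.69), including the transcription factor Sox4 (3.40 ± 0.43) and the pyruvate kinase isoform gene Pkm (2.69 ± 0.22). Of 26 cell cycle genes, 22 rose, 10 of them under the floor in controls, and 1 fell (median 2.54). The proliferation antigen Mki67 was at 20.4, 31.3 and 33.6 CPM against 0.828 to 2.19 CPM (median 1.32), a change of 4.29 ± 0.35 (adjusted p = 4.04e-13). Cyclin D1 (Ccnd1) rose by 2.36 ± 0.36. The replication clamp Pcna was at 47.5, 38.6 and 43.3 CPM against 26.7 to 35.8 CPM (median 31.7) and did not pass (0.43 ± 0.22 (adjusted p = 0.105)), although the groups did not overlap. It passed with median-ratio scaling (adjusted p = 0.046), DESeq2 (0.0378), library totals alone (0.96, adjusted p = 0.000117), only the compared groups (0.00965) and 1 clock phase (0.0335).

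Among the stress lists, the p53 target Phlda3 rose by 2.92 ± 0.34, while 5 of 16 p53 targets rose and 2 fell, near the 24.9% and 20.3% of all genes; 3 rose without CD-HFD replicate 4, and 12 rose and none fell under library totals alone. Of 15 immediate early genes 8 rose, 1 of them under the floor in controls, and 1 fell, against 24.9% and 20.3% of all genes. Without CD-HFD replicate 2, 5 rises were left. The transcription factor Myc was at 18.5, 23.0 and 42.8 CPM against 1.89 to 9.66 CPM (median 3.67) (2.68 ± 0.61 (adjusted p = 0.000406)). Of 19 NRF2 targets, 8 rose and 6 fell, against 24.9% and 20.3% of all genes, with a median of -0.01 that was 0.52 under library totals alone. Haem oxygenase (Hmox1) rose by 1.49 ± 0.31 and the carbonyl reductase Cbr3 by 2.42 ± 0.45. Malic enzyme (Me1), which supplies NADPH for fat synthesis, was at 28.7, 18.01 and 30.9 CPM against 233 to 434 CPM (median 293) and fell, with a change of -3.54 ± 0.66 (adjusted p = 2.96e-05). Of 12 glycolytic isoforms used outside hepatocytes, 8 rose and 2 fell (median 2.01), with hexokinases Hk3 and Hk2 at 3.52 ± 0.28 and 2.75 ± 0.31.

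Among the deepest falls were genes that growth hormone drives in male liver. All 15 male-biased genes tested fell (median -3.19), as did all 17 major urinary protein genes tested, of 22 listed (median -4.60), whose near-identical copies share reads and are uncertain one by one; 14 of the 17 fell in the leave-one-out refit with the fewest calls. Moxd1, a monooxygenase-like protein, had no count in any CD-HFD library and 11.6 to 151 CPM (median 40.1) in controls. It was at least 103-fold lower, against a floor of 3 counts in the smallest CD-HFD library; without control replicate 6, the highest control, the bound is 65.8-fold. Hsd3b5, a steroid dehydrogenase of male liver, was at 1.04, 0.131 and 0.533 CPM against 51.1 to 264 CPM (median 128), a change of -8.09 ± 1.07 (adjusted p = 5.55e-08). Mup7 was at 1.39, 1.83 and 2.27 CPM against 589.9 to 1783 CPM (median 792), a change of -9.02 ± 1.15 (adjusted p = 2.36e-08). Mup15 held 1 count over the 3 CD-HFD libraries, a ratio of 2740 between the diets with a 95% counting interval of 492 to 108000; without control replicate 6 the ratio was 1400 (250 to 55200). Elovl3, a fatty acid elongase, changed by -5.08 ± 0.77 and the serpin Serpina1e by -3.19 ± 0.48. Sex is not labelled. The mean level of Xist, the RNA of the inactive X, was 0.233 CPM on CD-HFD and 0.270 CPM in controls, with the Y-linked Ddx3y at 38.5 ± 5.43 and 99.5 ± 16.9 CPM (SD, n = 3 and n = 6).

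Of 15 female-biased genes 7 had counts enough to be tested, and 6 of these rose. In controls 4 of the 6 were under the floor, so this count is a description only. The other tested member, A1bg, had a mean of 0 CPM on CD-HFD and 0.256 CPM in controls and did not pass. Cyp2a4, which shares near-identical sequence with Cyp2a5, was at 42.8, 10.8 and 31.5 CPM against 0.138 to 1.04 CPM (median 0.433), a change of 5.93 ± 0.77. Its control mean was under the floor, so this rise is a description only. Prom1, a membrane glycoprotein that is also a progenitor and duct marker, rose by 3.20 ± 0.48. Of 15 growth hormone and IGF pathway genes, 1 rose and 6 fell, against 24.9% and 20.3% of all genes, and 4 fell in the leave-one-out refit with the fewest falls. The median of -0.38 was -0.71 without the library labelled CD-HFD replicate 1 and 0.12 under library totals alone. The serpin Serpina3k was at 2333, 2774 and 2335 CPM against 12490 to 17130 CPM (median 15960) and fell, with a change of -2.64 ± 0.33 (adjusted p = 1.73e-08). The epidermal growth factor receptor Egfr changed by -2.17 ± 0.38 and the leukaemia inhibitory factor receptor Lifr by -1.79 ± 0.32.

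Of 36 cytochrome P450 genes of families 1 to 3 (41 listed), which oxidise drugs and steroids, 4 rose and 22 fell (median -1.16). Cyp2c29 was at 22.5, 5.22 and 11.1 CPM against 931 to 1678 CPM (median 1429), a change of -6.74 ± 0.74 (adjusted p = 7.13e-10). Cyp2b10 held 1 count in all CD-HFD libraries, a ratio of 324 with a 95% counting interval of 57.9 to 12800. Cyp2e1, a pericentral enzyme, was at 4522, 4068 and 3245 CPM against 3754 to 6349 CPM (median 4335) and did not pass (-0.23 ± 0.28 (adjusted p = 0.52); 0.29 under library totals alone). Of 16 pericentral genes, 3 rose and 5 fell, against 24.9% and 20.3% of all genes (5 and 3, with a median of 0.38 against -0.14, under library totals alone). Among them Cyp1a2 changed by -1.14 ± 0.17 and the transcription factor Tbx3 by -2.05 ± 0.33. Of 23 bile acid genes, 2 rose and 10 fell, against 24.9% and 20.3% of all genes. The median of -0.32 was -0.72 without the library labelled CD-HFD replicate 1 and 0.20 under library totals alone. Cyp7b1, an oxysterol hydroxylase, was at 29.4, 37.1 and 33.3 CPM against 286 to 709.7 CPM (median 456), a change of -3.79 ± 0.43 (adjusted p = 1.81e-09). The organic anion carrier Slco1a1 changed by -4.01 ± 0.54 and the bile acid importer Slc10a1 by -1.94 ± 0.38.

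Lipid synthesis genes fell. Scd1, the desaturase that makes oleate, was at 409, 85.6 and 222 CPM on CD-HFD against 5036 to 19860 CPM (median 9277). Its change was -5.37 ± 0.71 (adjusted p = 5.47e-08), and the 3 CD-HFD livers themselves differed widely. Of 20 lipogenesis genes 13 fell and 1 rose (median -1.74), among them Thrsp, a regulator of fat synthesis (-4.05 ± 0.81). Srebf1, the transcription factor of this pathway, was at 138, 88.5 and 72.8 CPM against 63.9 to 186 CPM (median 90.7), with no change that passed (-0.06 ± 0.32 (adjusted p = 0.889); 0.45 under library totals alone). Of 24 cholesterol synthesis genes 19 fell and none rose (median -1.58). The sterol reductase Tm7sf2 was at 52.4, 38.4 and 34.8 CPM against 163 to 202 CPM (median 193), a change of -2.17 ± 0.24 (adjusted p = 6e-10), and the mevalonate pathway kinase Pmvk changed by -2.06 ± 0.33.

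The genes of fat export and droplets moved less. Of 19 VLDL and apolipoprotein genes 11 fell and 1 rose (median -0.83), with 6 falls left without CD-HFD replicate 4 and 5 (median -0.30) under library totals alone. Mttp, which loads lipid onto apolipoprotein B, was at 141, 95.9 and 142 CPM against 241 to 416 CPM (median 362), a change of -1.44 ± 0.33 (adjusted p = 0.000374). Apoa4, an apolipoprotein that rises with hepatic fat, was at 315, 661 and 486 CPM against 76.2 to 252 CPM (median 206) and rose by 1.36 ± 0.32 (adjusted p = 0.000635). Among 17 lipid droplet genes, 2 rose and 3 fell, no more than the 24.9% and 20.3% of all genes (7 and 1 under library totals alone). The droplet enzyme Hsd17b13 rose by 0.97 ± 0.22, and the droplet-forming protein Fitm1 changed by -1.67 ± 0.35. The droplet coat protein Plin2 was at 424, 547 and 436 CPM against 343 to 1517 CPM (median 818) and did not pass (-0.85 ± 0.37 (adjusted p = 0.0537)), but it fell by 1.01 and passed without control replicate 6 (adjusted p = 0.0177), and also passed without control replicate 3 (0.0458), with the replicate block (0.00405) and at 1 clock phase (0.0193). In the fatty acid oxidation list 8 of 26 rose and 4 fell, near the 24.9% and 20.3% of all genes, with 5 rises left without CD-HFD replicate 2 and 12 rises and no fall under library totals alone. The fatty acid carrier Slc27a1 was at 34.8, 85.3 and 72.0 CPM against 4.28 to 7.91 CPM (median 6.01), a change of 3.40 ± 0.26 (adjusted p = 4.71e-14), and the uncoupling protein Ucp2 rose by 3.13 ± 0.21.

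Choline feeds both phosphatidylcholine and the methyl groups of the methionine cycle. Of 16 phosphatidylcholine synthesis and choline uptake genes, 5 rose and 4 fell, near the 24.9% and 20.3% of all genes, with 2 falls left without CD-HFD replicate 4 and 1 under library totals alone (median 0.23 against -0.30). The lysophospholipid acyltransferases Lpcat2 and Lpcat1 rose by 2.84 ± 0.28 and 2.44 ± 0.28, and the choline transporter-like gene Slc44a2 was at 24.6, 28.8 and 32.8 CPM against 4.52 to 6.49 CPM (median 5.71), a rise of 2.34 ± 0.26 (adjusted p = 1.51e-09). Of 21 methionine cycle and betaine genes, 12 fell and 1 rose (median -0.62). Gnmt, which disposes of surplus S-adenosylmethionine, was at 564, 486 and 432 CPM against 1339 to 1848 CPM (median 1485), a change of -1.66 ± 0.38 (adjusted p = 0.000367). Cbs, which diverts homocysteine to cysteine, changed by -1.30 ± 0.22. Under library totals alone 3 of these 21 genes fell and 6 rose.

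Other hepatocyte functions moved less, and their counts depend on the scaling. Of 16 hepatocyte transcription factors 7 fell and none rose (median -0.67; 3 and 2, median -0.14, under library totals alone). Hnf4a, the central regulator of hepatocyte identity, was at 592, 414 and 529.8 CPM against 758 to 1791 CPM (median 1149), a change of -1.22 ± 0.24 (adjusted p = 7.2e-05). Foxa3 changed by -1.81 ± 0.34 and Prox1 by -1.21 ± 0.28. Of 18 urea cycle and amino acid genes 7 fell, against 20.3% of all genes, and 4 fell without CD-HFD replicate 4, near that share. The median of -0.48 was 0.05 under library totals alone. Nags, which makes the activator of the cycle, changed by -1.14 ± 0.16 and ornithine aminotransferase (Oat) by -1.32 ± 0.28. Of 12 liver glucose enzymes 4 fell and 1 rose, against 20.3% and 24.9% of all genes (2 falls without CD-HFD replicate 2, and under library totals alone). Glycogen phosphorylase Pygl changed by -1.72 ± 0.30, while the coactivator Ppargc1a rose by 1.46 ± 0.35. Of 20 nuclear respiratory chain genes 13 fell, against 7 without CD-HFD replicate 4 and none under library totals alone. Of 30 complement and coagulation genes 18 fell and 3 rose (median -0.62; 6 and 4, median -0.10, under library totals alone). The lectin Mbl2 was at 34.1, 22.7 and 45.9 CPM against 177 to 301 CPM (median 227), a change of -2.81 ± 0.31 (adjusted p = 7.26e-10), whereas the C1q chains C1qb and C1qc, made by macrophages, rose by 2.83 ± 0.31 and 2.57 ± 0.32. C4a, a complement gene nearly identical to C4b, was at 11.7, 10.96 and 6.53 CPM against 264 to 834 CPM (median 394) and fell, with a change of -5.60 ± 0.57 (adjusted p = 1.23e-10). On the TMM scale the hepatocyte marker sum was lower in the same livers, and how far that sets these falls was not tested.

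**Figure D3:**
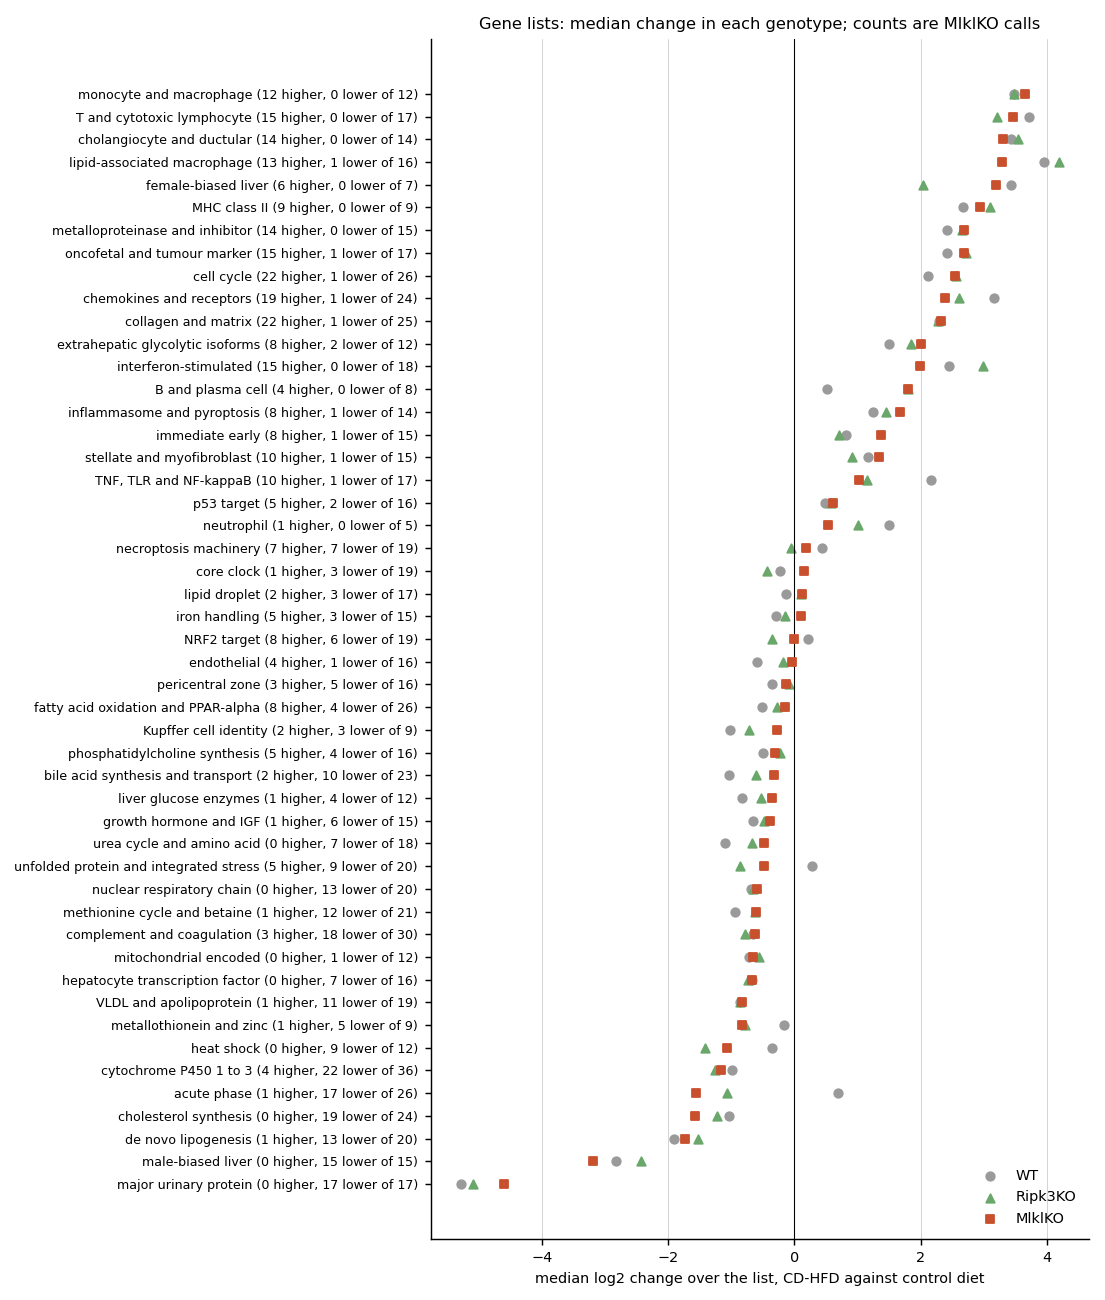
Median log2 change of 49 gene lists (vertical axis), CD-HFD against control diet (horizontal axis), in MlklKO (squares), WT (circles) and Ripk3KO (triangles); the numbers beside each list are the members that rose and fell in MlklKO. Lists run from 3.65 for monocyte and macrophage genes to -4.60 for major urinary proteins in MlklKO, and the acute phase list lies at -1.56 in MlklKO, -1.06 in Ripk3KO and 0.70 in WT. The medians of the T cell, B cell and female-biased lists are descriptions only, since most of their members were near 0 in controls.

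Necroptosis genes moved in both directions, in a balance that depends on the scaling. Of 19 genes of the necroptosis machinery, 7 rose and 7 fell, against 24.9% and 20.3% of all genes (11 and 2 under library totals alone), with 4 falls without CD-HFD replicate 4 and 5 rises without the library labelled CD-HFD replicate 1. Zbp1, a nucleic acid sensor that activates RIPK3, was at 27.7, 17.9 and 19.2 CPM against 2.98 to 9.38 CPM (median 6.31), a change of 1.76 ± 0.33 (adjusted p = 2.66e-05). The death ligand Tnfsf10 (TRAIL) rose by 1.53 ± 0.36. The TNF receptor Tnfrsf1a was at 103, 91.9 and 94.5 CPM against 81.4 to 423 CPM (median 256) and fell, with a change of -1.40 ± 0.30 (adjusted p = 0.000153), although 1 control lay below the CD-HFD livers. The mitochondrial phosphatase Pgam5 changed by -1.10 ± 0.21. Inflammasome and pyroptosis genes gave 8 rises, 5 of them of genes under the floor in controls, and 1 fall among 14 (median 1.68). Casp1, the protease that matures IL-1beta, was at 8.18, 12 and 10.53 CPM against 0.298 to 2.21 CPM (median 1.67), a change of 2.78 ± 0.33 (adjusted p = 4.23e-09), and Casp4 rose by 1.98 ± 0.40.

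Acute phase genes, which hepatocytes switch on in response to IL-6 and IL-1, were lower on CD-HFD than on the control diet. Of 26 tested, 17 fell and 1 rose (median -1.56). Serum amyloid A1 (Saa1) was at 133, 110.4 and 113 CPM on CD-HFD against 473 to 4053 CPM (median 1534), a change of -4.00 ± 0.93 (adjusted p = 0.00052). The 3 CD-HFD livers were close together and the 6 controls spread widely, all above them. Its near-identical neighbour Saa2 was at 55.4, 53.5 and 49.0 CPM against 311 to 4160 CPM (median 1143), a change of -4.84 ± 1.12 (adjusted p = 0.000491). Il1r1, the receptor for IL-1, was at 54.8, 95.6 and 56.4 CPM against 148 to 771 CPM (median 429), a change of -2.70 ± 0.38 (adjusted p = 1.6e-07). The other falls included Saa4, the fibrinogen chains Fgb and Fgg, Apcs, Lrg1, Stat3 and Socs3. In sum the list stood at 20360 to 23840 CPM on CD-HFD and 30990 to 87440 CPM in controls.

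Metallothionein genes and most cytosolic chaperones fell too. Mt1, a zinc-binding metallothionein, was at 91.6, 279 and 113 CPM on CD-HFD, and at 2003 to 4132 CPM in control replicates 1 to 5 and 24.2 CPM in control replicate 6. The change was -3.84 ± 0.86 (adjusted p = 0.000326), with control replicate 6 below all CD-HFD livers. Mt2, chosen after its values were seen, was at 1.57, 9.26 and 3.20 CPM on CD-HFD, and at 89.3 to 208 CPM in control replicates 1 to 5 and 0.448 CPM in control replicate 6. Of 9 metallothionein and zinc genes 5 fell and 1 rose (median -0.83; 4 and 1, median -0.30, under library totals alone). The metal exporter Slc30a10 was at 2.61, 2.74 and 1.60 CPM against 38.0 to 66.6 CPM (median 56.8), a change of -4.59 ± 0.49 (adjusted p = 3.45e-10), and the zinc importer Slc39a14 changed by -1.92 ± 0.28. Of 12 heat shock genes 9 fell and none rose (median -1.07; 4 fell under library totals alone). Of 20 genes of the unfolded protein and integrated stress responses 5 rose and 9 fell, against 24.9% and 20.3% of all genes. In controls 2 of the 5 were under the floor. The median of -0.49 was -0.84 without the library labelled CD-HFD replicate 1 and 0.02 (7 rises, 5 falls) under library totals alone.

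The promoters of 3 chaperone genes are shown because they hold the letters of the elements that heat shock factor and the ATF6 branch of the unfolded protein response are known to bind. Each is the 250 bases before the RefSeq start (GRCm38.p6, plus strand), matched by symbol, since the deposited counts were made on GRCm39; capitals mark the match. GAANNTTC, 2 inverted GAA units of the heat shock element, was searched on both strands, and the endoplasmic reticulum stress element, CCAAT and CCACG with 9 bases of any kind between them, likewise.
Hspb1 (chr5:135887669-135887918): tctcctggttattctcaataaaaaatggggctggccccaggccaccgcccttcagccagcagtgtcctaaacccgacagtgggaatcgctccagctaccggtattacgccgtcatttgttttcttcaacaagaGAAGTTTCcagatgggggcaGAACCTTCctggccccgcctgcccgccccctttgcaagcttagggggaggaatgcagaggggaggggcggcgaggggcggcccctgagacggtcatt
Hspa5 (chr2:34771840-34772089): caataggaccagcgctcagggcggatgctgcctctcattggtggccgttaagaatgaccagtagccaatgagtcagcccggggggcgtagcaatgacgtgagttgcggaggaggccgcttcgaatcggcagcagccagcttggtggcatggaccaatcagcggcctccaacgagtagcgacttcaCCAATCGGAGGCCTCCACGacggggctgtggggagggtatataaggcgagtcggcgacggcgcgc
Creld2 (chr15:88819396-88819645): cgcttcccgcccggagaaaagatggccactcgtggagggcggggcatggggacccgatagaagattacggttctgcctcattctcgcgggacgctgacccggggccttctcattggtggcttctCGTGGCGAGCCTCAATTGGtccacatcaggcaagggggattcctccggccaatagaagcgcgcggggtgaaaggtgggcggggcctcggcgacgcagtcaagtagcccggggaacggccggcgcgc
A gene with several RefSeq entries was counted once, with a match in any of them. The heat shock letters were in 7.73% of the 27025 genes with a promoter and in 6 of the 9 such heat shock genes: Hspb1, Hspd1, Hspe1 and Dnaja1, which fell, and Hspa1a and Hspa1b, which did not pass. The stress element was in 0.13% of all genes with a promoter and in 3 of 19 genes of the unfolded protein list: Hspa5 and Creld2, which fell, and Derl3, which did not pass. A match describes the letters in this window only.

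Hspb1, a small chaperone whose window holds 2 heat shock matches, was at 17.2, 30.5 and 44.5 CPM against 48.3 to 215 CPM (median 114), a change of -2.002 ± 0.45 (adjusted p = 0.000371). Hspa5, the main chaperone of the endoplasmic reticulum, was at 1046, 643 and 1060 CPM against 2416 to 4312 CPM (median 3110), a change of -1.81 ± 0.37 (adjusted p = 9.59e-05). Creld2, a secretory pathway protein whose match lies on the minus strand, was at 57.8, 41.5 and 72.9 CPM against 272 to 569.6 CPM (median 298), a change of -2.64 ± 0.54 (adjusted p = 9.34e-05). None of these genes overlapped between the diets. Hsp90aa1 and Hsph1 changed by -1.60 ± 0.35 and -1.60 ± 0.46. Among the 5 members that rose, the transcription factor Atf3 was at 42.8, 32.4 and 42.1 CPM against 0.895 to 6.03 CPM (median 1.73), a change of 4.18 ± 0.44 (adjusted p = 2.35e-10), and the serine synthesis enzyme Psat1 rose by 2.31 ± 0.43.

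The difference between the knockout and WT responses was tested as an interaction, in which the 2 responses share no libraries. It was called for 612 genes (4.12%): 235 with a higher response in MlklKO (1.58%) and 377 with a lower one (2.54%). The count rested on single libraries: it was 195 without CD-HFD replicate 4, 289 without CD-HFD replicate 2, 383 and 393 without control replicates 1 and 5, and 1265 without control replicate 6. Without the library labelled CD-HFD replicate 1 it was 470. Of the 377 lower genes, 51 fell in MlklKO and rose in WT, 221 fell in MlklKO and did not pass in WT, 78 rose in WT and did not pass in MlklKO, and 27 moved the same way in both; each count shares its libraries with the test that chose the genes. Of the 235 higher genes, 23 rose in MlklKO and fell in WT, 91 rose in MlklKO alone, 91 fell in WT alone and 30 moved the same way.

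**Figure D4:**
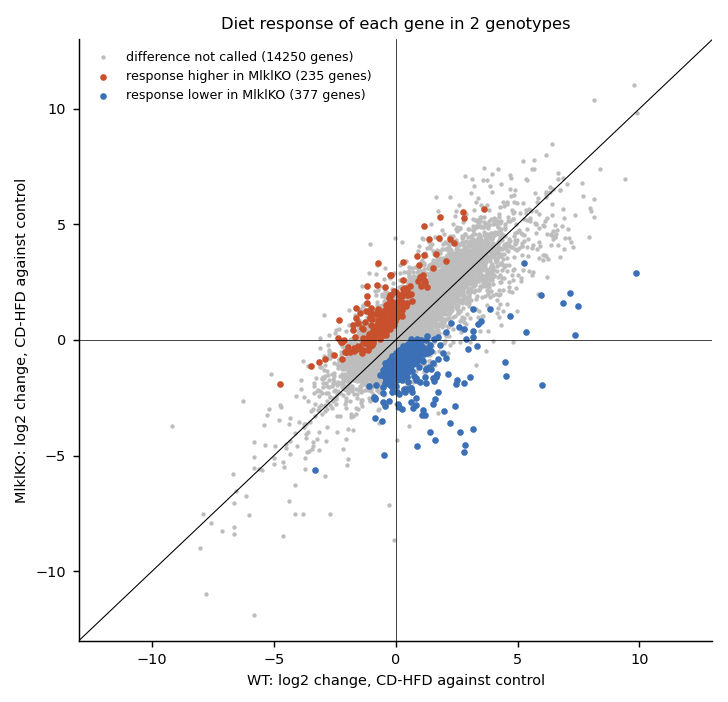
Log2 change between CD-HFD and control diet of 14862 genes in WT (horizontal axis) and MlklKO (vertical axis), 1 point per gene, with the diagonal as a line. The 377 genes with a lower response in MlklKO lie below the diagonal and the 235 with a higher response above it; the grey points were not called.

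In many of these genes the controls of the 2 genotypes differed. Among the 377 genes with a lower response, the 6 MlklKO controls lay above all 6 WT controls in 141 (37.4%), against 3.08% of all genes. The CD-HFD livers of the knockout lay below all WT CD-HFD livers in 29 (7.69%), against 2.42% of all genes. Among the 235 with a higher response, the MlklKO controls lay below the WT controls in 71 (30.2%, against 1.87% of all genes), and the CD-HFD livers lay above in 22 (9.36%, against 2.35%). The interaction contains these control values, so the shares describe the called genes and are no test. The libraries also differed in clock phase: the log2 ratio of Arntl to Dbp ran from -5.03 to -3.73 in MlklKO controls, from -6.26 to -5.28 in MlklKO CD-HFD and from -8.33 to 2.75 in WT controls. With the 11 libraries at the other phase left out, which leaves 2 WT controls and 5 WT CD-HFD libraries in the test, a check added after seeing the data, 716 genes were called, of which 262 were among the 612.

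Of the 26 acute phase genes, 16 had a lower response in MlklKO and none a higher one, against 2.54% of all genes; 8 were left without CD-HFD replicate 4 and 11 at 1 clock phase. In WT 12 of the 26 rose and 6 fell (median 0.70). In Ripk3KO 2 rose and 16 fell (median -1.06), and no member was called in the difference between the 2 knockout responses. Saa1 was at 12.3 to 43.8 CPM in WT controls and 114 to 197 CPM in WT CD-HFD, so that the CD-HFD levels of both genotypes were close and the controls far apart. The difference between the responses was -6.63 ± 1.17 (adjusted p = 0.000979), and for Saa2 -7.66 ± 1.40 (adjusted p = 0.00122). Lipocalin 2 (Lcn2), an iron-sequestering acute phase protein chosen after its values were seen, was at 380.1, 485 and 321 CPM in MlklKO CD-HFD. Its controls held 182 to 818 CPM in control replicates 1 to 5 and 16.3 CPM in control replicate 6, and the change did not pass (0.22 ± 0.76 (adjusted p = 0.835)). In WT, Lcn2 went from 0.456 to 6.60 CPM to 304 to 592 CPM, and the responses differed by -7.16 ± 1.28 (adjusted p = 0.00101). Socs3, the feedback inhibitor of IL-6 signalling and also chosen after its values were seen, was at 20.7, 22.3 and 22.5 CPM against 9.99 to 230.1 CPM (median 94.8) in the knockout, with a difference of -2.92 ± 0.62 (adjusted p = 0.00524).

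**Figure D5:**
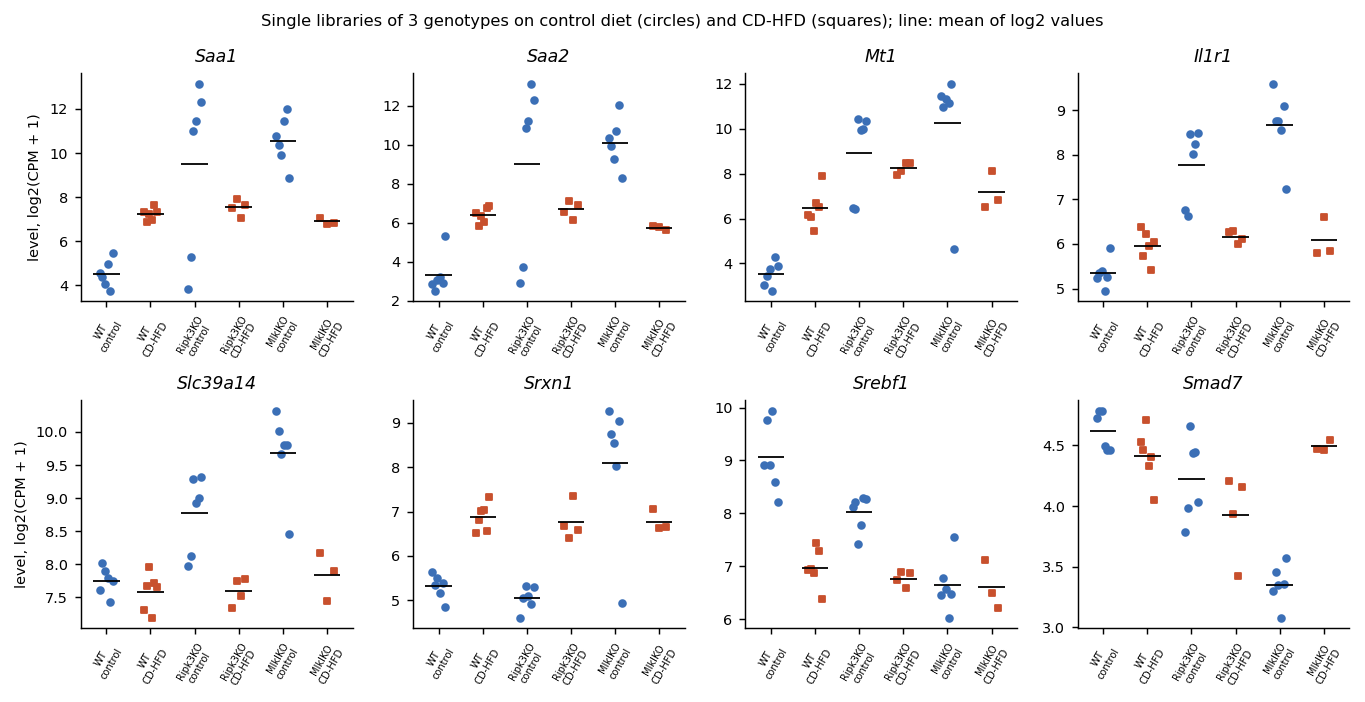
Levels of 8 genes, as log2(CPM + 1) on the vertical axis, in single livers of WT, Ripk3KO and MlklKO mice on control diet (circles) and CD-HFD (squares), with lines at the mean of the log2 values. For Saa1 the MlklKO controls (473 to 4053 CPM) lie above the WT controls (12.3 to 43.8 CPM), whereas the CD-HFD livers of the 3 genotypes lie between 110 and 243 CPM.

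Other genes with a lower response in MlklKO included Il1r1 (difference -3.32 ± 0.46 (adjusted p = 9.75e-05)), Mt1 (-7.03 ± 1.12 (adjusted p = 0.000286)) and Mt2 (-7.39 ± 1.45 (adjusted p = 0.00266)). Ugt2b37, a glucuronosyltransferase, was at 1.22, 1.83 and 1.73 CPM against 12.7 to 57.2 CPM (median 42.4), and its response differed from that of WT by -5.47 ± 0.83 (adjusted p = 0.000246). The uracil glycosylase Ung differed by -2.82 ± 0.44 (adjusted p = 0.000246) and the zinc finger gene Zfp9 by -3.18 ± 0.50 (adjusted p = 0.000251). Slc39a14, Tnfrsf1a and sulfiredoxin (Srxn1), which restores oxidised peroxiredoxins, differed by -1.76 ± 0.34 (adjusted p = 0.00263), -1.83 ± 0.37 (adjusted p = 0.00386) and -3.35 ± 0.50 (adjusted p = 0.000246). Each of these differences passed in all 30 settings run, as did those of the genes with a higher response named next.

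A higher response in MlklKO was called for the adenosine receptor Adora1, which was at 27.7, 35.1 and 33.6 CPM against 3.27 to 13.3 CPM (median 5.82) and differed from WT by 1.94 ± 0.30 (adjusted p = 0.000246). Rin2, a regulator of the endocytic GTPase RAB5, differed by 1.66 ± 0.30 (adjusted p = 0.00105) and Zfp608 by 2.33 ± 0.36 (adjusted p = 0.000246). Smad7, the inhibitor of TGF-beta signalling, was at 21.2, 21.0 and 22.4 CPM against 7.44 to 10.9 CPM (median 9.21), a difference of 1.43 ± 0.26 (adjusted p = 0.00123). For Srebf1 the difference was 2.13 ± 0.40 (adjusted p = 0.00181): WT fell from 297 to 984 CPM to 81.7 to 172 CPM, while the knockout had no change that passed. Carmil1, an actin regulator, followed that pattern, with a change of 0.11 ± 0.34 in MlklKO and -2.37 ± 0.28 in WT. Blnk rose in both genotypes and by more in MlklKO (2.04 ± 0.47 (adjusted p = 0.00997)). Its mean in MlklKO controls was under the floor, so this difference too is a description only.

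Compared with the Ripk3 knockout, 5 genes were called (0.0336%), 1 with a higher response in MlklKO (0.00673%) and 4 with a lower one (0.0269%), with 839 at an unadjusted p under 0.05, and DESeq2 called 10. Srxn1 fell in MlklKO from 262 to 619 CPM in control replicates 1 to 5 and 29.5 CPM in control replicate 6 to 132, 97.5 and 99.6 CPM on CD-HFD. In Ripk3KO it went from 23.3 to 39.0 CPM to 83.6 to 162 CPM, and the responses differed by -3.53 ± 0.52 (adjusted p = 0.000438). The oestrogen sulfotransferase Sult1e1 rose less in MlklKO, with a difference of -5.36 ± 0.91 (adjusted p = 0.00337). Its controls held 1.29 to 2.48 CPM in control replicates 1 to 5 and 29.5 CPM in control replicate 6, and its own change of 1.61 ± 0.53 was 3.35 without control replicate 6. The surface protein Ly6d also rose less (-4.94 ± 0.89 (adjusted p = 0.00533)), and Mrap, the accessory protein of melanocortin receptors, fell further (-2.67 ± 0.46 (adjusted p = 0.00337)). Smad7 rose in MlklKO and did not pass in Ripk3KO, a difference of 1.54 ± 0.28 (adjusted p = 0.00533). The count was 2 without CD-HFD replicate 4, 8 without Ripk3KO control replicate 4 and 38 without control replicate 6 of MlklKO. In a fit of only the compared groups it was 0, with 857 genes at an unadjusted p under 0.05. For Saa1 the Ripk3KO controls ranged from 13.2 to 9103 CPM, and the Ripk3KO CD-HFD livers from 132 to 243 CPM, so the controls of that genotype ran from the range of the WT controls to above the highest MlklKO control.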

How the data were processed

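Liver RNA (RNeasy) was made into strand-specific libraries with the NEBNext Ultra II Directional kit from 500 ng of total RNA, per the labels' protocols. The deposited values are raw read counts per gene, which the authors made with FastQC, STAR and HTSeq on GRCm39, per the submitters' processing notes; these also name edgeR and limma, and give no versions. A symbol was found for 34373 of the 35249 gene identifiers, and the 876 without one held 0.0838% of the counts.

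Counts were analysed as deposited with edgeR 4.0.16 in R 4.3.3. Genes with low counts were removed with filterByExpr (minimum count 10, by the 9 groups), which left 14862 genes and 99.8% of the counts. One quasi-likelihood fit with a mean for each of the 9 groups of all 44 libraries and TMM factors gave the diet contrast and both interactions, with Benjamini-Hochberg adjustment over all genes and a threshold of 0.05. TMM factors were 0.816 to 0.863 in MlklKO controls and 1.15 to 1.27 in MlklKO CD-HFD. SE is the size of the log2 change divided by the root of F. Intervals and floors (3 counts) cover counting error only.

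In counts simulated on 14739 genes, 100 genes were changed 2-fold, 100 were changed 4-fold and all others were left unchanged. The fit recovered 45% of 2-fold and 85% of 4-fold changes in the diet contrast. These shares were 24% and 73% for the difference from WT, and 20% and 71% for the difference from Ripk3KO. In the data 45.2% of genes were called in the diet contrast, which shifts the Benjamini-Hochberg cutoff. The recovery shares therefore do not carry over to that contrast. No pair of libraries within either MlklKO group agreed within sampling noise (chi-square per degree of freedom 7.74 to 66.6).

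The members and the 49 gene lists were chosen with earlier results of these data known, so lists carry counts and medians and no test. A list's counts are over the members tested; where the full number is not given, at most 2 members were not tested. Named genes are Mlkl and Ripk3; up to 10 of the largest rises and falls (called, mean log2 CPM of at least 1, no overlap, at most 2 per gene family stem); in each list up to 3 called members with the largest change and the member with the highest mean; and for each interaction up to 6 (WT) or 4 (Ripk3KO) genes with the lowest adjusted p in each direction. Some of those are left out for brevity. Genes in list counts that are named without values, and the members that hold a motif, fall outside this rule, as do Lcn2, Mt2 and Socs3. Alternatives were median-ratio (RLE) scaling, library totals alone, no filter, only the compared groups, the replicate number as a block, a clock covariate, DESeq2 1.42.0 and leaving out each library. Setting aside the library labelled MlklKO CD-HFD replicate 1 together with MlklKO control replicate 6, and keeping 1 clock phase, were chosen after seeing the data. Keeping 1 clock phase leaves out 4 WT control, 6 WT CD-LFD and 1 WT CD-HFD libraries and no MlklKO library. In the diet contrast it is therefore no check of clock phase.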

Additional observations from a re-analysis of the deposited data

Results flagged for a closer look

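The 6 MlklKO controls were examined for a library far from the other 5, for each named gene and each list's summed level, on the log2 CPM scale. This was so in 15 of 195 cases, where chance flags about 1 in 20, and in 11 of the 15 the library was control replicate 6. It was low for Mt1 (4.61), Mt2 (-0.57), Slc39a14 (8.46), Hsp90aa1 (8.69), Relb (0.34), Srxn1 (4.90), Ly6d (-0.93), Slc30a10 (5.26) and the summed metallothionein and zinc genes (9.20). In the same library Sult1e1 (4.90) and Mup16 (6.69) were high. Control replicate 4 was apart for Cd74 (5.96) and mt-Co1 (13.55). Control replicate 1 was apart for Cd34 (-2.15) and for the summed NRF2 targets (12.95). Without control replicate 6 the log2 diet changes of the genes in which it was apart all still passed the edgeR test. They were Mt1 -4.10, Mt2 -4.81, Slc39a14 -2.08, Hsp90aa1 -1.73, Relb 1.39, Srxn1 -2.01, Ly6d 1.78, Slc30a10 -4.68, Mup16 -7.76 and Sult1e1 3.35.

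The diet response differed between MlklKO and WT, by the interaction test, for the genes described in the report. On the log2 scale MlklKO minus WT was higher by 1.94 for Adora1, 2.33 for Zfp608, 2.48 for Carmil1, 1.66 for Rin2, 1.43 for Smad7, 2.13 for Srebf1 and 2.04 for Blnk. It was -3.32 for Il1r1, -7.03 for Mt1, -7.39 for Mt2, -5.47 for Ugt2b37, -2.82 for Ung, -3.35 for Srxn1, -3.18 for Zfp9, -6.63 for Saa1, -7.66 for Saa2, -7.16 for Lcn2, -1.76 for Slc39a14, -2.92 for Socs3 and -1.83 for Tnfrsf1a. MlklKO minus Ripk3KO was -3.53 for Srxn1, -5.36 for Sult1e1, -4.94 for Ly6d, -2.67 for Mrap and 1.54 for Smad7.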

How the results depend on the processing

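The 6718 calls of the diet contrast became 6550 with RLE scaling, 7091 with library totals alone, 6464 with no filter, 5419 with only the compared groups and 6785 with DESeq2. They ranged from 5653 to 6814 with 1 library left out. The 612 genes that differed from WT became 235 with only the compared groups, 968 with DESeq2, 1061 with the 2 libraries set aside, and 195 to 1265 with 1 library left out. The 5 that differed from Ripk3KO became 0, 10, 18 and 2 to 38 in the same settings. The replicate numbers do not pair the samples (same-number correlations of 0.10, -0.13 and 0.12). A replicate block gave 7058, 675 and 5 calls.

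Of the 141 genes examined singly in the diet contrast, calls were lost for Mlkl and Cd5l, as given above, and for Sult1e1 with only the compared groups (adjusted p = 0.0972). Calls were gained in some settings for Ripk3, Pcna and Plin2, as given above, and for mt-Co1, which had missed the threshold (adjusted p = 0.0665), with only the compared groups (0.00934) and at 1 clock phase (0.0097). The 4 genes whose change turned direction had not passed. Lcn2 was -0.00571 with the 2 libraries set aside, and -0.0318 (without control replicate 6) to 0.699 with 1 library left out, also below 0 without CD-HFD replicate 2 (-0.00892). Cyp2e1 was 0.287 with library totals alone. Carmil1 was -0.0862 (without CD-HFD replicate 4) to 0.298 with 1 library left out, also below 0 without control replicate 5 (-0.00356). Srebf1 was 0.0032 with RLE scaling, 0.447 with library totals, 0.0334 with only the compared groups, 0.00365 with DESeq2, and -0.378 to 0.182 with 1 library left out, above 0 without control replicate 6 (0.182) and without CD-HFD replicate 4 (0.0901). The cause was not tested. Depth limits genes at a few counts, of which Moxd1, Mup15 and Cyp2b10 are given as bounds or counting intervals.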
